A study of Pimephales promelas with 80 samples.

Results

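The dose step described here is the rise in nominal concentration of 6PPD that separates the highest dose of the series, 2.68 mg/L, from the next lower one, 0.848 mg/L, a ratio of 3.16. Its members were chosen by their labels: the 5 larvae at 2.68 mg/L and the 5 at 0.848 mg/L, 10 of the 80 fathead minnow larvae (Pimephales promelas) sequenced. Each library holds the mRNA of 1 whole larva kept unfed for 24 hours in a well of a plate, with DMSO as the solvent of the exposures. Beside these fish the comparisons use the 5 larvae at 0.268 mg/L 6PPD, the 5 at 2.77 mg/L and the 5 at 0.878 mg/L of the quinone 6PPD-Q, and the 10 controls, which were not exposed to either chemical. All larvae descend from several crosses whose hatched young were mixed and sorted at random. The labels state larval age both from hatching and from fertilization, and neither value is given here. Of the 10 fish, 9 have the letter C in their library code and 1, replicate 1 at 2.68 mg/L, has the letter A, as do 2 controls. The letter is read here as that of a plate, termed plate A or plate C below. The code does not say whether the plate was one of exposure or of a later step.

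6PPD is an antioxidant that protects tire rubber by reacting with ozone, and 6PPD-Q is the quinone formed in that reaction. The quinone is known for killing coho salmon at very low concentrations, while the fathead minnow tolerates it. RNA of a whole larva mixes all tissues, so fewer cells of a type and less RNA per cell cannot be told apart. The gene identifiers of the deposited files carry no names and none matched the RefSeq table used, so genes are given by identifier or by rank, no role is stated for any of them, and no marker genes of tissues were examined.

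The 5 libraries at 2.68 mg/L held 16.8 to 26.1 M counts in genes and the 5 at 0.848 mg/L held 19.4 to 20.9 M (M, 10 to the power 6). The 8 library measures compared (counts in genes, genes detected, shares of reads in genes, outside genes, ambiguous and aligned to several places, the share of the 10 most counted genes, and the scaling factor) did not differ past the threshold, with two-sided exact permutation p of 0.317 or more over 5 fish against 5, and an adjusted p of 1 for each. The smallest p this design allows is 0.00794. The 10 most counted genes took 10.1% ± 1.21 of counts at 2.68 mg/L and 10.7% ± 0.79 at 0.848 mg/L (SD, n = 5 each).

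Larvae at 2.68 mg/L differed from larvae at 0.848 mg/L in 1575 of the 21599 genes tested, which is 7.29%. Of these, 1005 (4.65% of genes tested) were higher and 570 (2.64%) lower at 2.68 mg/L, at an adjusted p of at most 0.05 in edgeR's quasi-likelihood test. Genes past this threshold are termed called below. At an unadjusted p under 0.05 there were 4320 genes. The split between the directions depended on scaling: with upper quartile factors 808 genes were higher and 740 lower, while the median log2 change over all genes was 0.00 in the fit reported here and -0.04 with those factors.

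Most called changes were moderate. The median log2 fold change was 0.67 in the genes called higher and -0.77 in those called lower. There were 221 genes higher and 184 lower by more than 1 on the log2 scale, and 45 higher and 32 lower by more than 2. Of the called genes 526, or 33.4%, changed by less than 1.5-fold in the fit. When each change was tested against a size of 1.5-fold instead of 0, 134 genes (0.62%) passed, 91 higher (0.421%) and 43 lower (0.199%).

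**Figure D1:**
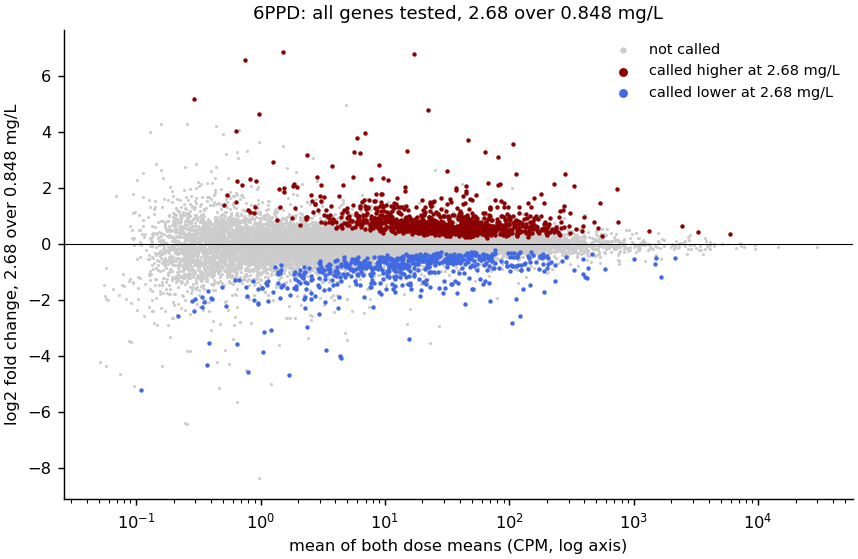
Log2 fold change of every gene tested, 2.68 over 0.848 mg/L 6PPD (vertical axis), against the mean of both dose means in CPM, counts per M of scaled library size (horizontal log axis). Each point is 1 gene: 1005 were called higher (red) and 570 called lower (blue) at 2.68 mg/L, and many of the largest called changes are in genes of low level.

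The genes called higher were mostly well-expressed ones. With the genes split into 4 equal classes by mean level over the 10 fish, 0.796% of the lowest class (up to 3.15 CPM) were called higher and 1.76% lower. Of the highest class, from 33.0 CPM up, 8.46% were called higher and 3.13% lower. The genes called higher had a median log2 change of 1.71 in the lowest class and 0.60 in the highest. For the genes called lower these medians were -1.50 and -0.59. Smaller changes thus passed the test at high levels, and how much of the pattern lies with detection was not tested. Genes called higher took 7.94% ± 1.34 of all counts at 2.68 mg/L, 4.99% ± 0.21 at 0.848 mg/L (SD, n = 5 each) and 4.35% ± 0.13 in controls (n = 10). Genes called lower took 2.18% ± 0.40, 3.63% ± 0.18 and 3.79% ± 0.17 in the same order. The direction of these shares between the exposed doses is fixed by the choice of the genes.

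In single fish, 850 genes (3.94% of those tested) had all 5 larvae at 2.68 mg/L above all 5 at 0.848 mg/L, and 404 (1.87%) had all 5 below. Of the called genes, 591 of the 1005 higher ones (58.8%) and 227 of the 570 lower ones (39.8%) had groups that did not overlap. The calls were made from these same fish and favour such genes, so these shares are not separate evidence. No gene was at 0 in all fish of one dose with at least 3 counts in each fish of the other (0 genes in either direction).

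FMg024842 had the largest rise of the called genes that qualified for naming, by an average of at least 5 CPM and all 5 fish at 2.68 mg/L on one side of the 0.848 mg/L mean. Its levels were 41.3, 62.7, 9.11, 20.1 and 36.2 CPM in replicates 1 to 5 at 2.68 mg/L, against 0.268, 0.37, 0.202, 0 and 0.669 CPM in replicates 1 to 5 at 0.848 mg/L. All 5 fish at the higher dose were above all 5 at the lower one, which had 0 to 14 counts each. The fitted log2 change, 6.78 ± 0.87 (SE), had an adjusted p of 3.93e-08. Elsewhere in the series the gene was close to silent: controls ranged from 0 to 0.988 CPM, and the highest fish of any other group stood at 1.94 CPM, at 0.0878 mg/L of 6PPD-Q.

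FMg002917 ranked second, and its rise rests on 1 fish. It stood at 3.18, 2.6, 4.27, 1.18 and 53.3 CPM in replicates 1 to 5 at 2.68 mg/L, against 1.44, 0.416, 1.26, 0.719 and 0.287 CPM at 0.848 mg/L. The groups overlapped, with replicate 4 of the higher dose below 2 fish of the lower one. The fitted log2 change was 3.97 ± 0.91 (SE), with an adjusted p of 0.0022, and without replicate 5 it was 1.76 (adjusted p = 0.242).

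The other 8 genes with the largest rises, called rise 3 to rise 10 by rank, had log2 fold changes of 2.82 to 3.80. In 8 of all 10 the groups did not overlap, against 3.94% of all genes tested, and the naming rule itself favours such genes. Rise 4 was high in every fish, at 114, 64.1, 132, 43.7 and 80.2 CPM at 2.68 mg/L, against 4.98, 10.5, 9.15, 2.97 and 5.06 CPM at 0.848 mg/L. Its log2 change of 3.73 ± 0.40 (SE) had an adjusted p of 1.1e-10. Rise 7, whose identifier is the one just before that of rise 4, stood at 147, 94.3, 188, 89.2 and 61.9 CPM at 2.68 mg/L, against 9.58, 21.2, 16.8, 3.74 and 7.69 CPM at 0.848 mg/L. In both genes replicate 3 was the highest fish at 2.68 mg/L, and replicate 4 was the lowest at 0.848 mg/L. Whether the pair are neighbours or copies in the genome was not tested.

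Several of these rises were led by replicate 1, the plate A fish. Rise 5 stood at 739, 77.4, 48.1, 43.4 and 71.7 CPM at 2.68 mg/L, against 20.9, 9.06, 13.0, 22.3 and 16.8 CPM at 0.848 mg/L. Rise 9 stood at 546, 72.1, 38.9, 33.1 and 40.6 CPM at 2.68 mg/L, against 16.0, 15.2, 17.5, 15.6 and 20.6 CPM at 0.848 mg/L. In both genes the other 4 fish at 2.68 mg/L also lay above all 5 fish at 0.848 mg/L. Without replicate 1 the log2 fold change of rise 5 was 1.87 in place of 3.58 (adjusted p = 0.0738) and that of rise 9 was 1.44 without the plate A libraries in place of 3.10, with an adjusted p of at most 0.0476 over its alternatives. Rise 8, at 46.4 CPM in replicate 1 and 1.41 to 3.38 CPM in the other 4 fish, had a log2 fold change of 1.14 without the plate A libraries (adjusted p = 0.349) in place of 3.26.

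FMg007996 had the largest fall of the genes that qualified for naming. It stood at 1.97, 1.52, 1.77, 6.09 and 2.28 CPM in replicates 1 to 5 at 2.68 mg/L, against 19.6, 23.0, 25.8, 46.3 and 27.4 CPM at 0.848 mg/L. The groups did not overlap, and replicate 4 was the highest fish of each dose. The fitted log2 change was -3.38 ± 0.30 (SE), with an adjusted p of 2.84e-13. The gene was already below controls at 0.848 mg/L, with a log2 difference of -1.46 (adjusted p = 1.71e-05), and controls stood at 78.4 ± 12.7 CPM (SD, n = 10).

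FMg002881 ranked second among these falls. Called genes that did not qualify, for a low level or for a fish on the wrong side, reached fitted log2 changes of 6.88 and -5.21. It stood at 14.3, 16.7, 38.8, 45.1 and 17.4 CPM in replicates 1 to 5 at 2.68 mg/L, against 147, 191, 227, 151 and 203 CPM at 0.848 mg/L. The groups were far apart, with the highest fish at 2.68 mg/L (45.1 CPM) far below the lowest at 0.848 mg/L (147 CPM). The fitted log2 change was -2.80 ± 0.29 (SE), with an adjusted p of 8.48e-11. At 0.848 mg/L the gene had a log2 difference of -0.48 from controls (adjusted p = 0.629), so it passed the test at the higher dose of the pair only, with -3.27 (adjusted p = 3.21e-15).

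The other 8 falls, called fall 3 to fall 10 by rank, had log2 fold changes of -1.79 to -2.57. In 5 of all 10 the groups did not overlap, against 1.87% of all genes tested, and here too the naming rule favours such genes. Fall 3 was the least even: it stood at 14.2, 31.4, 27.3, 25.2 and 76.2 CPM at 2.68 mg/L, against 263, 23.1, 126, 444 and 180 CPM at 0.848 mg/L. Replicate 2 at 0.848 mg/L lay below 4 of the fish at 2.68 mg/L. Its call (log2 fold change -2.57, adjusted p = 0.0148) was lost without replicate 1 at 2.68 mg/L (adjusted p = 0.0763) and without replicate 4 at 0.848 mg/L (adjusted p = 0.0775). Fall 4 stood at 1.01, 1.92, 1.25, 8.08 and 1.77 CPM at 2.68 mg/L, against 13.2, 10.6, 12.9, 18.9 and 10.1 CPM at 0.848 mg/L. There, and in falls 6, 7, 8 and 9, replicate 4 was the fish at 2.68 mg/L that had fallen least.

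**Figure D2:**
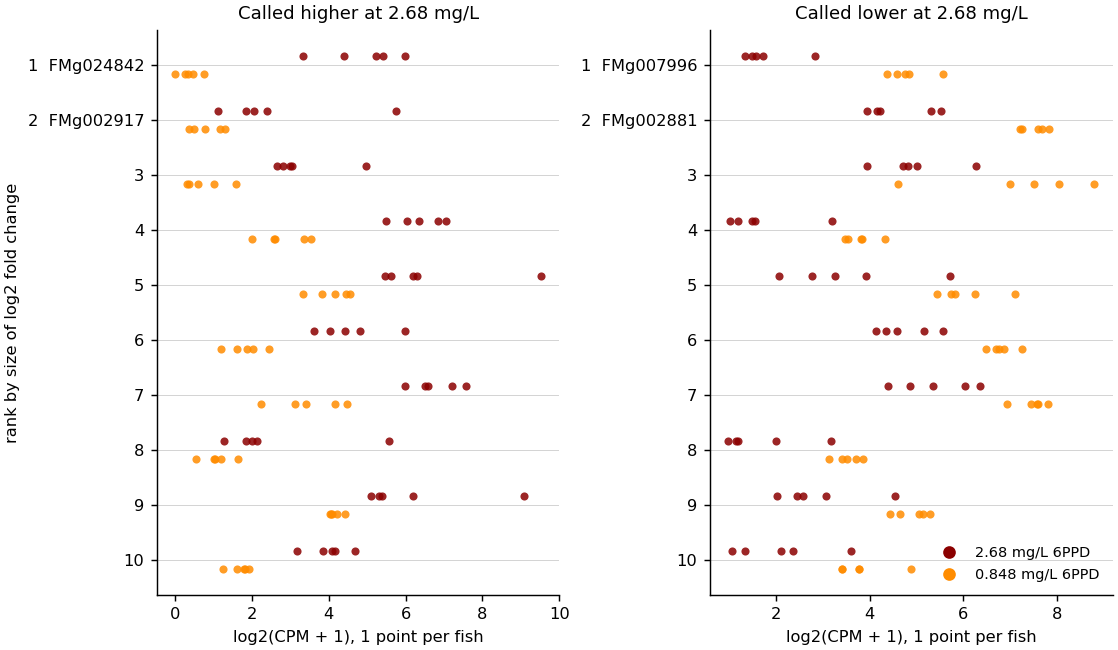
Level of the 10 genes with the largest log2 fold change each way of those that qualified for naming (rows, by rank), as log2(CPM + 1) with 1 point per fish, for 2.68 mg/L (dark red, upper points of a row) and 0.848 mg/L 6PPD (orange, lower points). The groups did not overlap in 8 of the 10 genes called higher and in 5 of the 10 called lower. Over all genes tested these shares were 3.94% and 1.87%.

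Set against controls, all 10 of the top rises (rank by fold change) were also called higher at 2.68 mg/L, where 12.4% of all genes tested were, and 0 of them at 0.848 mg/L, where 0.75% were. Of the 10 top falls, 9 were called lower than controls at 2.68 mg/L (9.72% of all genes) and 1, FMg007996, at 0.848 mg/L (0.13% of all genes). The fall that was not called against controls was fall 3 (log2 -1.09, adjusted p = 0.222). At 0.848 mg/L that gene had a log2 difference of 1.48 above controls, also not called (adjusted p = 0.355). Against controls, the share of genes called in either direction was 22.1% for the dose of 2.68 mg/L and 0.88% for that of 0.848 mg/L. Over 0.268 mg/L, rises 4 and 7 were already called higher at 0.848 mg/L (log2 1.66 and 1.79, adjusted p = 0.019 and 0.0139). FMg007996 was already called lower there (log2 -1.59, adjusted p = 5.34e-05). Over all genes tested these shares were 0.347% and 0.0324%. In the test of the dose step minus that lower step, 0 of the 10 top rises and 2 of the 10 top falls passed. Over all genes tested, 0.00926% passed upward and 0.037% downward. These contrasts share fish with the dose step, so they do not stand as separate evidence of it.

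Over all called genes, median levels were close to those of controls at 0.268 mg/L. At 0.848 mg/L they were shifted a little in the direction of the call. The 1005 genes called higher had a median log2 difference from controls of -0.02, 0.12 and 0.78 at the doses of 0.268, 0.848 and 2.68 mg/L. For the 570 genes called lower these medians were 0.02, -0.07 and -0.86. At the 3 lower 6PPD doses and the 8 doses of 6PPD-Q the medians lay between -0.06 and 0.04 for the higher genes and between -0.05 and 0.03 for the lower ones. The values at 0.848 and 2.68 mg/L describe genes chosen from those same fish.

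**Figure D3:**
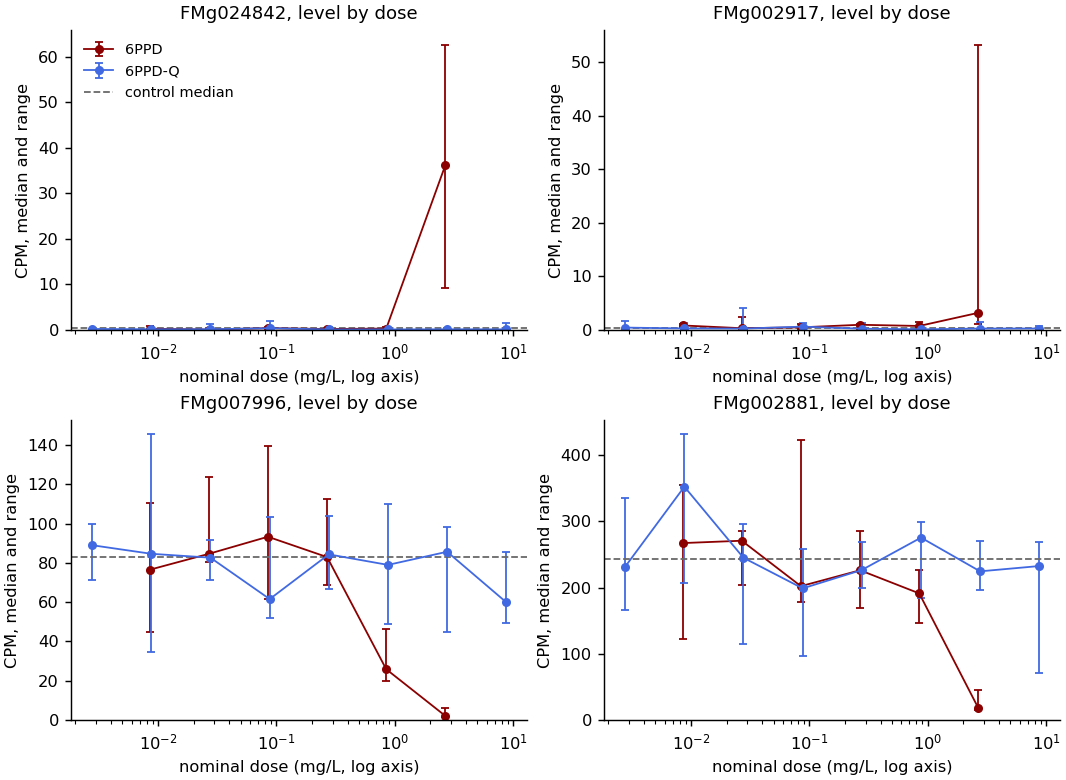
Levels of FMg024842, FMg002917, FMg007996 and FMg002881 (CPM, vertical axis) against nominal dose (mg/L, log axis) of 6PPD (red) and 6PPD-Q (blue): points are medians, bars run from the lowest to the highest of 5 fish, and the dashed line is the median of 10 controls. FMg007996 was down at 0.848 and 2.68 mg/L of 6PPD, at medians of 25.8 and 1.97 CPM, while FMg024842 had its only high level at 2.68 mg/L of 6PPD.

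By absolute difference in CPM the list was led by abundant genes with smaller folds. The largest gain was in a gene at 6868, 5370, 6251, 7011 and 7931 CPM at 2.68 mg/L, against 4679, 5175, 4851, 5466 and 5663 CPM at 0.848 mg/L. Its log2 change was 0.37 ± 0.12 (SE) with an adjusted p of 0.0464, its groups overlapped, and 13 of 22 alternatives lost the call, so this gene is close to the threshold. Gene 4 of this list changed far more. It stood at 1329, 1260, 1110, 786 and 1362 CPM at 2.68 mg/L, against 394, 315, 270, 193 and 310 CPM at 0.848 mg/L, and all fish of the higher dose lay above all of the lower one.

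That gene rose by about the same factor at each step. Its log2 change was 1.98 ± 0.18 (SE, with an adjusted p of 3.29e-13) in the dose step and 1.95 (adjusted p = 5.07e-13) between 0.848 and 0.268 mg/L. The difference of the steps was 0.03 (95% interval -0.56 to 0.63). Its level was 75.8 ± 10.7 CPM in controls (SD, n = 10) and 76.9 ± 12.8 CPM at 0.268 mg/L (n = 5), near each other.

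Gene 5 of the list also rose in the dose step. It stood at 1359, 936, 612, 401 and 649 CPM at 2.68 mg/L, against 286, 265, 282, 284 and 309 CPM at 0.848 mg/L. The fish at 0.848 mg/L were close together and inside the range of controls, 173 to 345 CPM, while those at 2.68 mg/L were spread widely and all above it. The fitted log2 change, 1.47 ± 0.24 (SE), had an adjusted p of 1.05e-05.

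The largest loss in CPM was in a gene at 559, 722, 891, 1348 and 1575 CPM at 2.68 mg/L, against 2820, 1765, 1973, 2182 and 2771 CPM at 0.848 mg/L. The groups did not overlap, and replicates 4 and 5 had fallen least. The fitted log2 change, -1.18 ± 0.22 (SE), had an adjusted p of 0.000171. The other 4 abundant genes that fell had log2 fold changes of -0.48 to -0.72, with adjusted p from 0.00193 to 0.042. Of these 4 genes, 3 lost their call without replicate 1 at 2.68 mg/L (adjusted p = 0.155, 0.146 and 0.112), and each of the 4 lost it under 1 to 9 of 22 alternatives.

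The 5 larvae at 2.68 mg/L differed in how far they had moved. For each fish a score was taken as the mean log2 CPM of the genes called higher minus that of the genes called lower, relative to controls, using genes called without that fish. At 2.68 mg/L it was 3.13, 1.89, 1.45, 1.00 and 1.64 for replicates 1 to 5, a mean of 1.82 ± 0.80 (SD, n = 5). At 0.848 mg/L it was 0.66, 0.48, 0.45, 0.26 and 0.49, a mean of 0.47 ± 0.14 (SD, n = 5). Each of the 10 fish lay above the highest control scored on that fish's own gene set, which stood at 0.11 to 0.19 over the 10 sets. The gene sets differ between fish, and how much of a gap between scores lies with the sets was not tested. On one set for all fish, the genes called with every fish included, the scores at 2.68 mg/L were 2.96, 2.01, 1.76, 1.35 and 1.84, in the same order from replicate 1 as the highest to replicate 4 as the lowest. At 0.848 mg/L they were 0.36, 0.28, 0.23, 0.12 and 0.29, a mean of 0.26 ± 0.09 (SD, n = 5). On that set all 5 fish at 2.68 mg/L and 4 of the 5 at 0.848 mg/L lay above the highest control, at 0.13, and replicate 4 at 0.848 mg/L lay below it. That set was chosen from these same fish, which fixes the direction between the doses.

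**Figure D4:**
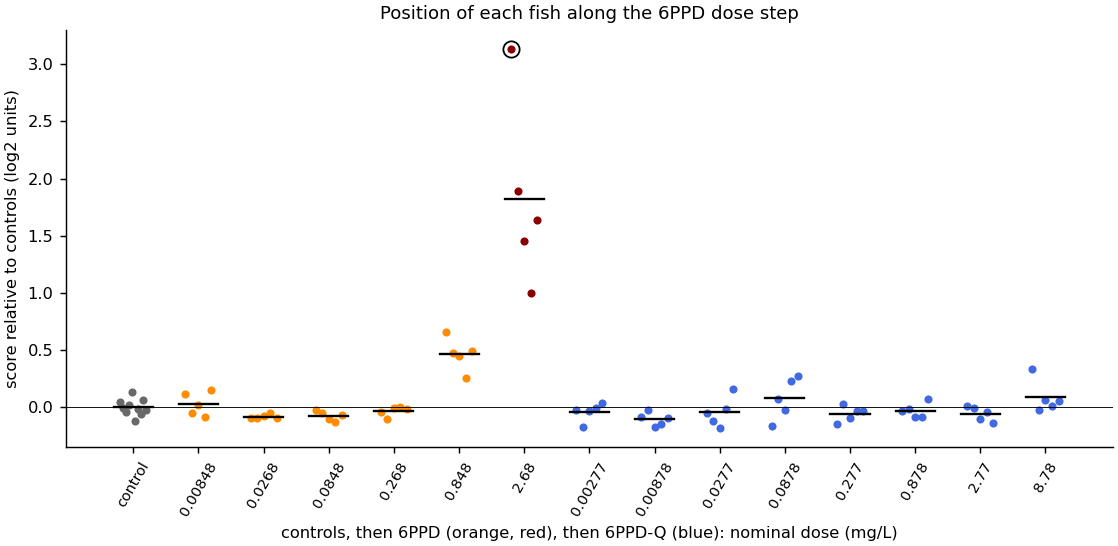
Score of each fish in log2 units relative to the control mean (vertical axis) for controls and each nominal dose in mg/L of 6PPD and 6PPD-Q (horizontal axis), with 1 point per fish and a bar at the group mean. The 5 fish at 2.68 mg/L 6PPD run from 1.00 to 3.13, with the plate A fish circled at the top, and the 5 at 0.848 mg/L from 0.26 to 0.66.

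The gradation also showed gene by gene. Of the genes called higher without the fish in question, 91.5%, 86.0%, 76.9%, 66.1% and 84.6% stood above all 5 fish at 0.848 mg/L in replicates 1 to 5, while the shares over all genes tested were 28.9%, 23.9%, 20.5%, 18.9% and 21.0%. Of the genes called lower, 91.9%, 81.9%, 70.5%, 38.5% and 71.8% stood below all 5 fish, and the shares over all genes were 26.8%, 20.8%, 17.9%, 16.3% and 18.4%. Replicate 1 was the fish farthest along in both directions. Replicate 4 was the least far along, and more so in the genes called lower. The sets differ in size: 448 higher and 247 lower genes for replicate 1, and 1152 and 867 for replicate 4. How much of the gaps lies with the sets was not tested. The 5 fish at 0.848 mg/L helped choose the genes and are also the yardstick. Part of the excess over the shares of all genes is therefore fixed by the choice. The shares over all genes, which are the same genes for each fish, ran in the same order of fish.

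**Figure D5:**
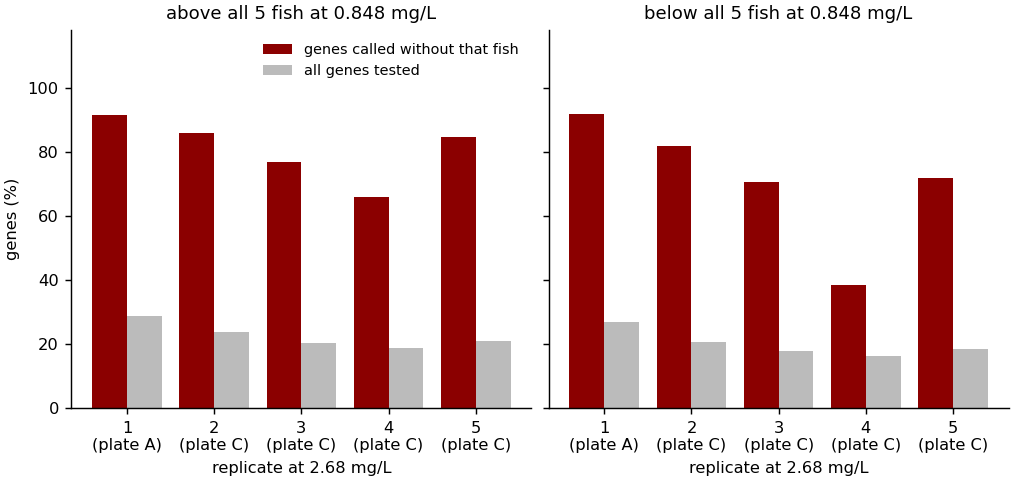
Percent of genes (vertical axis, from 0) in which each fish at 2.68 mg/L stood above (left, genes called higher) or below (right, genes called lower) all 5 fish at 0.848 mg/L, with genes called without that fish in red and all genes tested in grey. Replicate 4 had the lowest shares, 66.1% on the left and 38.5% on the right.

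Over all 21599 genes the distance between fish, as the root mean square of log2 CPM differences, gave the same picture. Replicate 4 at 2.68 mg/L was on average nearer to the fish at 0.848 mg/L (0.723) than to the other fish of its own dose (0.749). The second mean includes the distance to replicate 1, and it was not taken without that fish. Without the plate A libraries the median distance within the 2.68 mg/L group was 0.714. Replicate 1 was far from the fish at 0.848 mg/L (0.942) and far from its own group (0.799). The median distance within the group was 0.729 at 2.68 mg/L, 0.702 at 0.848 mg/L and 0.689 in controls, and between the doses it was 0.778. Groups of 5 fish elsewhere in the series ran from 0.693 at 0.277 mg/L to 0.844 at 0.0878 mg/L of 6PPD-Q. The lowest 6PPD dose, 0.00848 mg/L, stood at 0.772, so 0.729 lay inside the range of the other groups. Of all genes, 57.6% had a larger SD of log2 CPM at 2.68 mg/L than at 0.848 mg/L.

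Of the fits that left out 1 fish, the one without replicate 1 at 2.68 mg/L called the fewest genes, 696. Of these, 674 were called the same way with all fish. A fit of the compared groups alone called fewer still, 657. Without all 3 plate A libraries 693 were called, 464 higher and 229 lower. Within plate C alone, 4 fish at 2.68 mg/L against 5 at 0.848 mg/L, the genes called higher over all fish had a median log2 fold change of 0.56 and those called lower one of -0.66. These fish took part in choosing the genes, so the signs are largely fixed and only the sizes are given. The score of the 4 plate C fish was 1.49 ± 0.38 (SD), each on genes called without that fish. Replicate 1 still took part in choosing those genes. On the genes called with every fish included, the score of these 4 fish was 1.74 ± 0.28 (SD). On that set the 2 plate A controls scored -0.00 and 0.05, inside the range of the plate C controls, -0.12 to 0.13. With 1 exposed fish of plate A the plate and the fish cannot be told apart. Leaving out any 1 of the other 4 fish at 2.68 mg/L gave 1312 to 2020 genes, the most without replicate 4, and any 1 of the 5 at 0.848 mg/L gave 1187 to 1496, the fewest without replicate 4 of that dose.

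The preceding step, 0.848 over 0.268 mg/L, has the same dose ratio of 3.16 and shares the fish at 0.848 mg/L. It gave 82 called genes (0.38%), 75 higher (0.347%) and 7 lower (0.0324%). A direct test of the dose step minus the preceding step called 10 genes (0.0463%), of which 2 differences were positive (0.00926%) and 8 negative (0.037%), with 1230 genes at an unadjusted p under 0.05 and 51 called by DESeq2. For most genes called in the dose step the data thus do not separate the sizes of the steps. The count of 10 was 6 without the plate A libraries, 53 without replicate 4 at 2.68 mg/L, and 5 or 6 without any 1 fish at 0.848 mg/L.

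The 10 genes fell into 3 kinds, grouped after their values were seen. In 3 genes the change came at the preceding step and no further change passed the test. The clearest of these stood at 385, 347, 349, 264 and 479 CPM at 2.68 mg/L, against 219, 145, 111, 125 and 347 CPM at 0.848 mg/L, and at 7.77 ± 2.23 CPM at 0.268 mg/L (SD, n = 5). Its log2 change was 0.95 (adjusted p = 0.0646) in the dose step and 4.61 (adjusted p = 1.59e-14) in the preceding one, a difference of -3.67 (95% interval -4.77 to -2.57, adjusted p = 0.000121).

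In 5 genes, FMg002881 among them, the dose step gave log2 changes of -1.55 to -2.80, with changes of -0.31 to 0.21 in the preceding step. For FMg002881 the difference of steps was -2.48 (95% interval -3.40 to -1.57, adjusted p = 0.00606). The remaining 2 genes rose in the dose step, by 1.12 and 1.01, against -0.05 and -0.26 in the preceding one. One of them stood at 143, 86.5, 66.8, 69.7 and 71.8 CPM at 2.68 mg/L, against 35.7, 38.5, 37.8, 45.4 and 43.5 CPM at 0.848 mg/L, and its groups did not overlap. FMg024842, with its difference of 6.26 (95% interval 3.15 to 9.37), did not pass this test (adjusted p = 0.108).

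The quinone was set beside the parent over the nearest pair of nominal doses, 2.77 over 0.878 mg/L of 6PPD-Q, which are slightly higher in mass per litre and have a ratio of 3.16. The quinone is the oxidized form of 6PPD, and molar doses were not compared. That step of 6PPD-Q gave 0 called genes (0.0%) in edgeR, with 829 at an unadjusted p under 0.05 and 1 called by DESeq2. The test of the 6PPD step minus the 6PPD-Q step, which share no fish, called 521 genes (2.41%), 358 with a positive difference (1.66%) and 163 with a negative one (0.755%). Without the plate A libraries this count was 228.

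In the 358 genes the median log2 change was 0.81 in the 6PPD step and -0.14 in the 6PPD-Q step, with a median difference of 0.97. In the 163 genes the medians were -1.01 and 0.20, with a difference of -1.24. These medians describe genes chosen by the same contrast. Among the genes named for the dose step, 9 of the 10 top rises and 8 of the 10 top falls differed from the 6PPD-Q step. Over all genes tested, 1.66% passed with a positive difference and 0.755% with a negative one. The named genes were chosen by the 6PPD step, which is part of this contrast, so their counts are not separate evidence.

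FMg024842 differed by 6.26 (95% interval 3.20 to 9.31, adjusted p = 0.0112). It stood at 0.16 ± 0.14 CPM at 2.77 mg/L and 0.111 ± 0.108 CPM at 0.878 mg/L of 6PPD-Q (SD, n = 5 each). Without replicate 3 at 0.878 mg/L of 6PPD-Q its adjusted p was 0.103. FMg007996 differed by -3.42 (95% interval -4.19 to -2.65, adjusted p = 1.11e-08), with 79.1 ± 21.1 and 77.1 ± 22.4 CPM at those quinone doses. FMg002881 differed by -2.67 (95% interval -3.46 to -1.88, adjusted p = 6.75e-06).

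FMg002917 was the rise that did not pass: its difference was 1.96 (95% interval -0.93 to 4.85, adjusted p = 0.595), an interval that holds both no difference and a large one. Fall 5 and fall 10 did not pass either, with differences of -1.77 (95% interval -2.87 to -0.67, adjusted p = 0.0686) and -1.21 (95% interval -2.37 to -0.04, adjusted p = 0.328). Of the largest gains in CPM, the gene that rose at both 6PPD steps differed by 1.75 (95% interval 1.26 to 2.24, adjusted p = 1.83e-06). Its level was 81.5 ± 22.3 CPM at 2.77 mg/L and 69.5 ± 8.77 CPM at 0.878 mg/L of 6PPD-Q (SD, n = 5 each), near that of controls.

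Called genes that averaged at least 5 CPM over the fish of both steps were ranked by the difference between the steps of the chemicals. The 2 largest negative differences were in genes that were nearly absent at 2.68 mg/L of 6PPD. One stood at 0.151, 0.621, 0.26, 1.18 and 0.118 CPM at 2.68 mg/L (3 to 23 counts), against 2.46, 2.27, 6.47, 14.1 and 5.92 CPM at 0.848 mg/L. The groups did not overlap, although the fish of the lower dose spanned a wide range. Its difference was -4.49 (95% interval -6.70 to -2.29, adjusted p = 0.0114), with 23.2 ± 14.1 and 14.1 ± 13.6 CPM at the higher and lower quinone dose (SD, n = 5 each).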

How the data were processed

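For 80 libraries the authors deposited raw counts of 26150 genes, and a table of log2 values for the 6PPD and control fish. The submitters' processing notes list HTSeq 0.13.5, STAR 2.7.10a, edgeR, bcl2fastq 2.20.0, FastQC, MultiQC 1.12, SAMtools 1.13 and Trim Galore 0.6.6. Not given in the sources used here are the genome build, annotation and strand setting, so overlapping genes and near-identical copies are uncertain. Per the labels' protocols, libraries were made with a Lexogen SENSE mRNA kit. The deposited log2 values equal log2(TMM CPM + 1) within 5e-09. The 5 count lines that name no gene were left out. Of a library's reads, 7.73% to 13.5% lay outside genes, 4.48% to 6.02% were ambiguous, and 5.68% to 9.76% matched several places.

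The test was edgeR 4.0.16 in R 4.3.3 on the counts (TMM factors, filterByExpr by group, quasi-likelihood F test, glmTreat for 1.5-fold) in 1 fit of all 80 libraries, with Benjamini-Hochberg adjustment over 21599 genes and a threshold of 0.05. Where no other tool is named, a gene's adjusted p is from this test. The common biological coefficient of variation was 28.1%. CPM use TMM-scaled library sizes, and the log2 CPM of scores and distances add a prior count of 2. Simulated data with known changes were used to check the per-gene tests. Each library is 1 fish, and the chi-square per degree of freedom between fish of a dose was at least 22.2 in 20 pairs, so none was counted as a repeat.

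Genes were named by rule: the 10 largest log2 changes in each direction among called genes that averaged at least 5 CPM over the 10 fish and had every fish at 2.68 mg/L on one side of the mean at 0.848 mg/L (857 higher and 410 lower genes qualified), the 5 largest differences in CPM each way, and the 2 largest differences of steps each way. At most 2 identifiers each way are printed, since 0 of 26150 matched the RefSeq table (assembly fPimPro1.hap1.1, 64593 genes). The comparison and the lists were chosen with earlier results of these data known. Alternatives were other factors, filters, libraries in the fit, DESeq2 1.42.0, limma 3.58.1, a replicate block, a covariate and leaving out fish or plate A.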

Additional observations from a re-analysis of the deposited data

Results flagged for a closer look

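One fish stood apart from the other 4 of its dose in 17 of the 92 sets of values examined. Chance alone gives about 1 in 20 for normal values. These are skewed CPM values of genes with large changes, and whether the flags exceed chance was not tested. Replicate 1 at 2.68 mg/L stood apart 6 times: at 739, 46.4 and 546 CPM in rises 5, 8 and 9, at 4852 CPM in the second largest gain in CPM, at 143 CPM in a gene that rose more than in the preceding step, and at 199.7 CPM in a gene that rose more than with 6PPD-Q. Replicate 4 at 2.68 mg/L stood apart 5 times: at 30.5 CPM in rise 3, and at 6.09, 8.08, 7.93 and 22.0 CPM in falls 1, 4, 8 and 9, each time as the highest fish of its dose. Replicate 5 stood apart at 53.3 CPM in FMg002917 and 76.2 CPM in fall 3, and replicate 3 at 51.4 CPM in fall 5. At 0.848 mg/L, replicates 1, 2 and 4 stood apart once each, at 28.4, 1512 and 2170 CPM.

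The gene at 199.7 CPM in replicate 1 was at most at 5.70 CPM in the remaining 4 fish of that dose, and its difference from the 6PPD-Q step was 1.42 (adjusted p = 0.66) without that fish in place of 5.06 with it.

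A direct test of the difference between steps passed in 10 genes for the preceding 6PPD step and 521 for the 6PPD-Q step. The largest log2 differences from the preceding step were 1.28 and 1.17 upward and -3.67 and -2.49 downward. The gene at 1.28 lost its call under 16 of 27 alternatives and the gene at -2.49 under 15, among them the replicate block (adjusted p = 0.0553 and 0.115), and the gene at 1.17 lost it under 4. Those from the 6PPD-Q step, among called genes averaging at least 5 CPM, were 6.26 and 5.06 upward and -4.49 and -4.37 downward.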

How the results depend on the processing

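The dose step kept its count of 1575 within 1.5 times under the alternatives other than leaving out a fish, except in a fit of the compared groups alone (657 genes, 475 higher and 182 lower) and without the plate A libraries (693, 464 and 229). Leaving out 1 fish gave 696 to 2020 genes, 449 to 1153 higher and 247 to 867 lower. The 134 genes past 1.5-fold became 36 with the groups alone, 49 with limma and 60 without plate A, and 60 to 194 without 1 fish. The preceding step gave 130 genes with the share of reads outside genes as a covariate, and 56 to 95 without 1 fish. The step minus the preceding step gave 3 genes with the groups alone, 51 with DESeq2, 17 with limma, 6 without plate A, 17 with the covariate, and 5 to 53 without 1 fish. The step minus the 6PPD-Q step gave 225 with the groups alone, 228 without plate A, 831 with the covariate, and 230 to 730 without 1 fish. The cause of these changes in count was not tested.

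Mean scores at 2.68 and 0.848 mg/L were 3.83 and 0.92 on genes past 1.5-fold. Median distances were 0.459 and 0.421 over genes of at least 10 CPM, and 0.621 and 0.601 with a prior count of 5. Of 38 results on named genes, 18 kept their call under every alternative run and 0 changed sign. With the groups alone, rises 2 and 8 and falls 5, 8 and 10 lost their call (adjusted p = 0.0594, 0.0852, 0.0933, 0.0603 and 0.0955).

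Fish with the same replicate number did not deviate together: 0 of 5 pairs correlated over 0.1, and 1 of 5 fish correlated best with its own number. With a replicate block 1464 genes were called in the dose step (933 higher, 531 lower), 121 past 1.5-fold, 75 in the preceding step, 7 in the difference of those steps and 449 in the difference from 6PPD-Q. DESeq2 was not run for the 1.5-fold test, nor limma for the contrast with 6PPD-Q.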
